A study of Mus musculus with 12 samples.

Results

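The genes described here are the 4 CD3 chain genes Cd3d, Cd3e, Cd3g and Cd247 and the 3 constant genes of the alpha-beta T cell receptor, Trac, Trbc1 and Trbc2, 7 of the 37991 genes in the table. They were chosen by name as the chains of one receptor complex and matched by mouse Ensembl gene ID. All 7 were among the 12384 genes that reached an FPKM (fragments scaled to transcript length and to library size) of 1 or more in at least 3 libraries, the genes tested. RNA was sequenced from natural killer (NK) cells of C57Bl/6 mouse bone marrow, sorted as NK1.1+ and CD49b+ (the protocol label writes CD9b), with 3 libraries in each of 4 groups. The groups were DKO (Ncr1Cre Id2F/F Tcf7F/F), Id2KO (Ncr1Cre Id2F/F), Tcf1KO (Ncr1Cre Tcf7F/F) and Ctrl (Id2F/F, or Id2F/FTcf7F/F in the series' design text). Ncr1Cre is active in cells that express Ncr1, which codes for the NK receptor NKp46. The Ctrl libraries carried no Cre, so each comparison with Ctrl also holds the presence of Cre. The labels name no exclusion of CD3+ cells from the sort, and they do not say that each library came from a separate animal, so p-values measure the spread between these libraries, which may be technical.

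On T cells, the alpha and beta chains of the receptor recognise antigen, and the CD3 chains carry the signal into the cell. CD3 delta, epsilon and gamma (Cd3d, Cd3e, Cd3g) pair with one another beside the receptor, and CD3 zeta (Cd247) forms a dimer whose tail holds most of the phosphorylation sites. NK cells have no rearranged T cell receptor, but they use CD3 zeta, together with the Fc receptor gamma chain (Fcer1g), to signal from NKp46. Cytoplasmic CD3 epsilon and delta are known from human fetal NK cells, and transcripts of unrearranged receptor constant genes are known from lymphocytes that are not T cells. Id2 restrains E proteins, factors that bind E box letters in DNA, and Tcf7 codes for TCF-1, a factor of early T cell and NK cell development.

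The 3 genes Cd3d, Cd3e and Cd3g form one cluster. In GRCm38 (mm10) coordinates from GENCODE M21, Cd3g (ENSMUSG00000002033, chromosome 9, 44969572 to 44980431, minus strand) and Cd3d (ENSMUSG00000032094, chromosome 9, 44981786 to 44987339, plus strand) point away from each other, with 1355 bases between their starts. Cd3e (ENSMUSG00000032093, chromosome 9, 44998740 to 45009627, minus strand) begins beyond Cd3d and points towards it. Cd247 (ENSMUSG00000005763) lies apart, on chromosome 1, 165788681 to 165877277, plus strand. Its exons share 60.3% of their bases with 2 other annotated genes, Pou2f1 and Gm16565, and since the use of strand in counting is not stated, reads there cannot be told apart. The Cd247 level is uncertain for that reason, while the share for Cd3e is 3.3% (with Gm48719) and the other 5 members share none. Cd3e passed the test of the Tcf7 effect given below, and its neighbours Cd3d and Cd3g did not, though all 3 differences were positive. No test compared these genes with one another. The windows of 250 bases before and 50 bases after each annotated start are shown for the CD3 genes for that reason. They come from RefSeq, build GRCm38.p6, read 5′ to 3′ on the strand of the gene, at chr9:44981536-44981835 (Cd3d), chr9:45009562-45009861 (Cd3e), chr9:44980382-44980681 (Cd3g) and chr1:165788431-165788730 (Cd247). Capitals mark the E box letters CAGGTG or CAGCTG and the TCF letters CTTTGAT or CTTTGAA, or the reverse complement of one of these.
Cd3d: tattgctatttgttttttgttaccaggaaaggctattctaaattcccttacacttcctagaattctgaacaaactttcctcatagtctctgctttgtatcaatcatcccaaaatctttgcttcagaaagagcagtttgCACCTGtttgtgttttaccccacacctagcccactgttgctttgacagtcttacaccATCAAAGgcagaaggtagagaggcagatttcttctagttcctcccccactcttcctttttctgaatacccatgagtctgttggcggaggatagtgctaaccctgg
Cd3e: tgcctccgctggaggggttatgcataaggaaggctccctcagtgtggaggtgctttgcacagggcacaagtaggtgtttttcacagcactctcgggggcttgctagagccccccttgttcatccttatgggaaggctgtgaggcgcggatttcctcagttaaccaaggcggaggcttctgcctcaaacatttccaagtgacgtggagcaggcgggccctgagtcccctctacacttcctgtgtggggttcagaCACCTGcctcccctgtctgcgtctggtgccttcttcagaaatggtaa
Cd3g: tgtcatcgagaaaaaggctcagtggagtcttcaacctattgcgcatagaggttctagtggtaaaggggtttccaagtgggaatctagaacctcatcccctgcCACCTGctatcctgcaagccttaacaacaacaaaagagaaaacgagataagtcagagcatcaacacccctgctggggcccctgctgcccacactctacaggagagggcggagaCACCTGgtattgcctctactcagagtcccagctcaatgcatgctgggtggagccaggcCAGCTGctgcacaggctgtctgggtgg
Cd247: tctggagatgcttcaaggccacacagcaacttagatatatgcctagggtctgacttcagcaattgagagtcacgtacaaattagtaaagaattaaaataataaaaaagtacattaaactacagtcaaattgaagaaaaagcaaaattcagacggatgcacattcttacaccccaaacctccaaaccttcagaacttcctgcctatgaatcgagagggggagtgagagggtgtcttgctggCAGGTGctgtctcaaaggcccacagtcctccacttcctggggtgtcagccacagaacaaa
Each of these 4 windows holds CAGGTG on one strand or the other (Cd3g at 2 places), as do 20.2% of 32851 mouse promoter windows of this length. Cd3g also holds CAGCTG, which is found in 16.3% of the windows. The letters CTTTGAT occur once, in Cd3d (3.73% of all windows), and CTTTGAA in none of the 4 (5.14% of all windows). The motifs do not overlap one another in these windows, and a match is a description of letters, not of a bound site.

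Trac (ENSMUSG00000076928) lies on chromosome 14, 54220521 to 54224206, plus strand. The 2 beta constant genes lie next to each other on chromosome 6, plus strand, Trbc1 (ENSMUSG00000076490) at 41538218 to 41539881 and Trbc2 (ENSMUSG00000076498) at 41546730 to 41548352. Each follows its own cluster of joining segments, Trbj1 before Trbc1 and Trbj2 before Trbc2. Over 518 annotated coding bases Trbc1 and Trbc2 differ at 23 positions (95.6% identity). The first of these is C260A and the next G383A, given as the Trbc1 base, the position counted from 1 at the first annotated coding base, and the Trbc2 base. The last 120 coding bases (positions 399 to 518, GENCODE M21) are shown because most of the differences that let reads be assigned to one gene lie there. Capitals mark the bases that differ.
Trbc1: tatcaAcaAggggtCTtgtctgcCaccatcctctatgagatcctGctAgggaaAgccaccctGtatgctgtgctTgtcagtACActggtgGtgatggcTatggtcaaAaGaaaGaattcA
Trbc2: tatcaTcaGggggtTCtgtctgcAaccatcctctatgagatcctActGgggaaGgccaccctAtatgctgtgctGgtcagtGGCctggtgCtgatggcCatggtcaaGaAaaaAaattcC
Of the stretches of 76 bases, the number of sequencing cycles, 34.9% of those in Trbc1 and 37.4% of those in Trbc2 also occur in the other gene. These shares are over the annotated transcripts of 737 (Trbc1) and 692 bases (Trbc2). The FPKM imply that the authors divided by 512 and 521 bases, so the share among the counted reads could be larger. Reads from such stretches have 2 equal places, so the level of each beta gene is uncertain, to an extent that these shares do not fix.

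In Ctrl cells the mean levels (SD, n = 3) in falling order were 397 ± 69.3 FPKM for Trbc1, 282 ± 18.0 for Trbc2, 175 ± 29.4 for Trac, 132 ± 18.7 for Cd3e, 31.9 ± 8.48 for Cd3g, 28.1 ± 1.61 for Cd3d and 8.67 ± 2.04 for Cd247. Of the neighbours in this order, Trac and Cd3e (175 and 132 FPKM) and Cd3g and Cd3d (31.9 and 28.1 FPKM) overlapped in their libraries, and the others did not. The read counts that the FPKM steps imply ranged from 517 to 1940 over the libraries for Cd3d and from 1752 to 12150 for Cd3e, and no member had fewer than 517 in any library. Counting error was below the SD between libraries for each member in each group. They came closest for Cd3d in Ctrl, at 4.16% and 5.72% of the mean. The same steps imply the gene lengths the authors divided by, and these are not the M21 exon totals. For Cd247 the length was 9992 bases, 1.88 times the 5329 annotated, and for Cd3e 1436 bases, 0.352 times the 4080 annotated. The order of levels between genes therefore depends on the lengths used, while differences of 1 gene between groups do not. In bulk samples such as these, fewer cells that express a gene and less RNA per cell cannot be told apart.

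**Figure D1:**
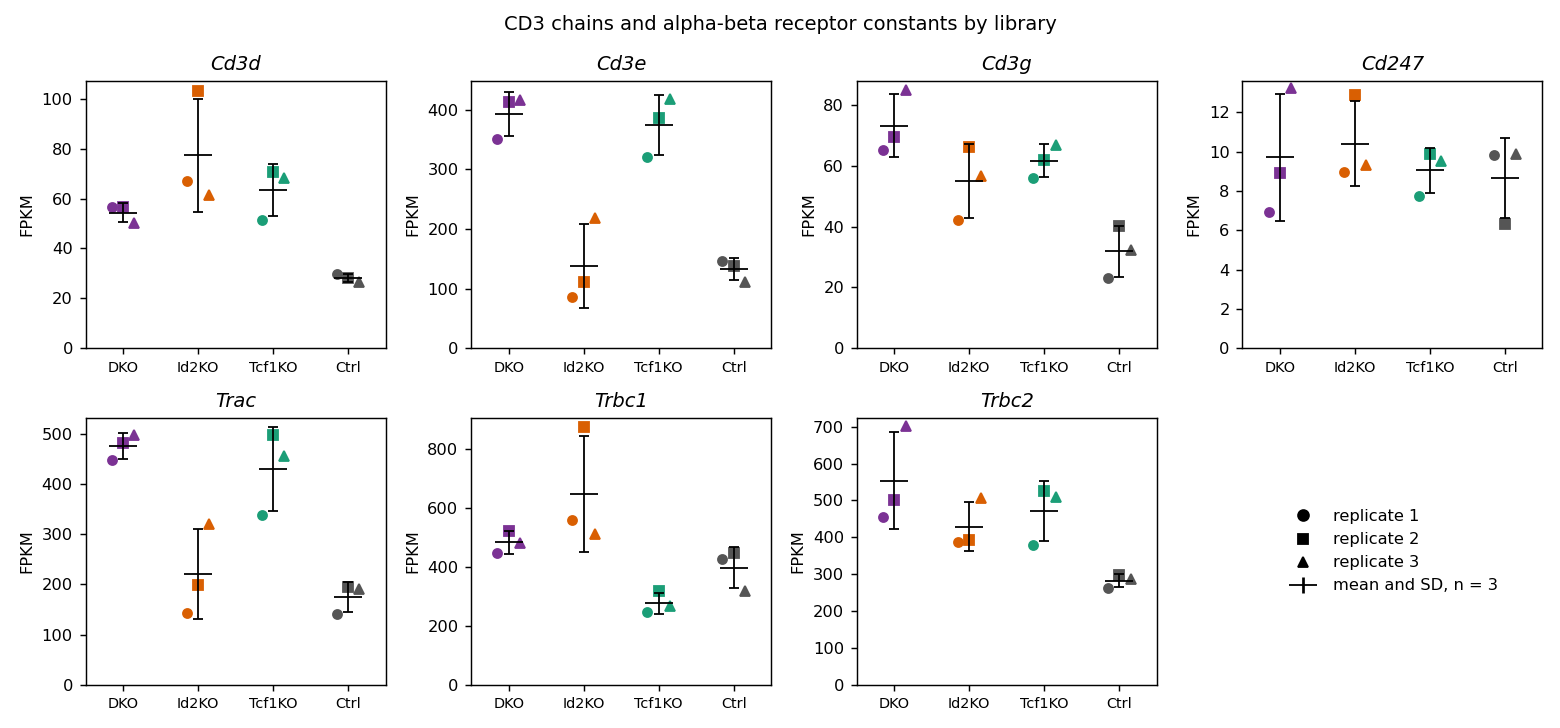
FPKM of each of the 7 genes (vertical axes, each from 0) in the 3 libraries of DKO, Id2KO, Tcf1KO and Ctrl (horizontal axis). Points are libraries, with a marker for each replicate number, and the bars are the mean and SD (n = 3). Cd3e and Trac are high in DKO and Tcf1KO, Cd3d is lowest in Ctrl, Trbc1 is lowest in Tcf1KO, and Cd247 is at a like level in the 4 groups.

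The libraries expressed the genes that define NK cells, though not at 1 level in all groups. Klrb1c (NK1.1) averaged 60.2 ± 9.79 FPKM in DKO, 73.6 ± 11.5 in Id2KO, 64.9 ± 1.1 in Tcf1KO and 79.2 ± 9.26 in Ctrl (SD, n = 3). Itga2 (CD49b) averaged 32.5 ± 2.66 FPKM in DKO, 33.6 ± 9.29 in Id2KO, 38.8 ± 1.59 in Tcf1KO and 46.7 ± 4.84 in Ctrl. Of 10 listed NK cell genes, all tested, 2 were called in the Tcf7 effect defined below, beside 0.371% of all tested genes. At an unadjusted p under 0.05 stood 5 of the 10 and 9.74% of all. The 2 called were both lower, namely Ncr1, given further down, and Eomes, a factor of NK cell development. Eomes averaged 25.7 ± 1.39 FPKM in DKO and 26.6 ± 1.70 in Tcf1KO, against 39.8 ± 8.82 in Id2KO and 47.3 ± 6.33 in Ctrl (-0.69 ± 0.12 on the log2 scale, limma adjusted p = 0.0454). None of the 10 was called by limma in the Id2 effect, also defined below, beside 0.299% of all tested genes. There 5 had an unadjusted p under 0.05 (10.9% of all), and voom called 2 (80 genes in all). Prf1 (perforin) had -1.001 ± 0.19 in the Id2 effect (limma adjusted p = 0.067). The library sizes implied by the values lay between 13977524 and 20209587 reads. Id2 stood at 42.3 ± 6.08 FPKM in DKO and 18.0 ± 1.04 in Id2KO, against 114 ± 11.6 in Tcf1KO and 152 ± 25.0 in Ctrl. It was higher in DKO than in Id2KO, by 1.18 ± 0.16 on the log2 scale (limma adjusted p = 0.0205). Comparisons of DKO with Id2KO, the Tcf7 effect and the interaction thus also hold a difference in Id2 level, and its part was not tested. The whole-gene value of Tcf7 (62.4 ± 9.94 in DKO, 84.8 ± 6.33 in Id2KO, 35.0 ± 4.65 in Tcf1KO and 40.9 ± 4.81 in Ctrl) covers exons outside a floxed segment and checks no label, so what is said of Tcf1KO and DKO libraries takes their labels as given. The markers of other marrow cells varied widely between libraries, and those of 3 kinds were lower where Id2 was targeted. The median Id2 effect was -2.89 for 8 neutrophil, -1.54 for 8 erythroid and -1.50 for 7 basophil genes, beside -0.0025 for all tested genes. Limma called none of these, and voom called 2 of the 8 neutrophil genes, 0 of the 8 erythroid and 0 of the 7 basophil genes. Counted next are genes that passed the filter in DKO and Id2KO alone. Of these, in that order, 7 of 7, 2 of 7 and 3 of 7 had an unadjusted p under 0.05 (10.9% of all). The summed FPKM of 8 neutrophil genes ranged from 158 to 418 in DKO, 10.7 to 738 in Id2KO, 998 to 3496 in Tcf1KO and 714 to 3067 in Ctrl. That of 8 B cell genes ranged from 0.857 to 9.88 over the 12 libraries. The part of other marrow cells in the results below, the Id2 effects of the members included, was not tested.

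Cd3e and Trac rose where Tcf7 was targeted, and the other 5 members did not pass the test, though Cd3g did with array weights, which give less weight to more variable libraries (adjusted p = 0.048). The Tcf7 effect is the mean of the difference between DKO and Id2KO and the difference between Tcf1KO and Ctrl, on the log2(FPKM + 1) scale, which understates the change of low genes. Across the 12384 genes, limma with Benjamini-Hochberg adjustment called 0.371% of genes in either direction at a threshold of 0.05, and 2 of the 7 members, both higher. At an unadjusted p under 0.05 stood 6 members and 9.74% of the genes. The members' median log2 difference was 0.54, beside -0.0067 for all tested genes.

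Cd3e, whose product pairs with CD3 delta or CD3 gamma, had 351, 414 and 416 FPKM in DKO and 320, 386 and 419 in Tcf1KO, against 85.8, 111 and 218 in Id2KO and 147, 139 and 111 in Ctrl. Each of the 6 Tcf7-targeted libraries was above each of the other 6. The Tcf7 effect was 1.55 ± 0.20 (SE) on the log2 scale, a 2.94-fold difference (limma adjusted p = 0.0162). DKO and Id2KO, which both carry Cre, differed by 1.61 ± 0.28 (adjusted p = 0.0891), and Tcf1KO and Ctrl by 1.5 ± 0.28 (adjusted p = 0.195), so neither pair of groups passed by itself. Without DKO replicate 3, Id2KO replicate 2, Tcf1KO replicate 3 or Ctrl replicate 3 the adjusted p of the combined effect was 0.0523, 0.0559, 0.0551 and 0.0647, with differences of 1.49 to 1.53, and it passed without any one of the other 8 libraries.

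Trac, the constant part of the alpha chain, had 447, 483 and 499 FPKM in DKO and 338, 498 and 455 in Tcf1KO, against 143, 199 and 320.3 in Id2KO and 141, 194 and 189.96 in Ctrl. The targeted libraries did not overlap the others, and Id2KO replicate 3 came closest. The Tcf7 effect was 1.23 ± 0.19, a 2.35-fold difference (limma adjusted p = 0.0255). DKO and Id2KO differed by 1.18 ± 0.26 (adjusted p = 0.145), and Tcf1KO and Ctrl by 1.29 ± 0.26 (adjusted p = 0.298). The call passed without Id2KO replicate 3 or Tcf1KO replicate 1, and without any one of the other 10 libraries the adjusted p lay between 0.0517 and 0.0867, with differences of 1.10 to 1.27. With no filter on low values the adjusted p was 0.0741.

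For Cd3e and Trac, every DKO library was above every Id2KO library and every Tcf1KO library above every Ctrl library, which held for 0.84% of the tested genes. Of the 5 other members, Cd3g and Trbc2 had positive Tcf7 differences of 0.69 ± 0.15 (limma adjusted p = 0.134) and 0.54 ± 0.14 (adjusted p = 0.178). Cd3d had 0.34 ± 0.14 (adjusted p = 0.458). Trbc1 had a negative one of -0.45 ± 0.15 (adjusted p = 0.319), and Cd247 was near 0 at -0.022 ± 0.17 (adjusted p = 0.978). Trbc1 thus had the opposite sign to Trac and Trbc2, and of these 3 the Trac value alone passed.

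**Figure D2:**
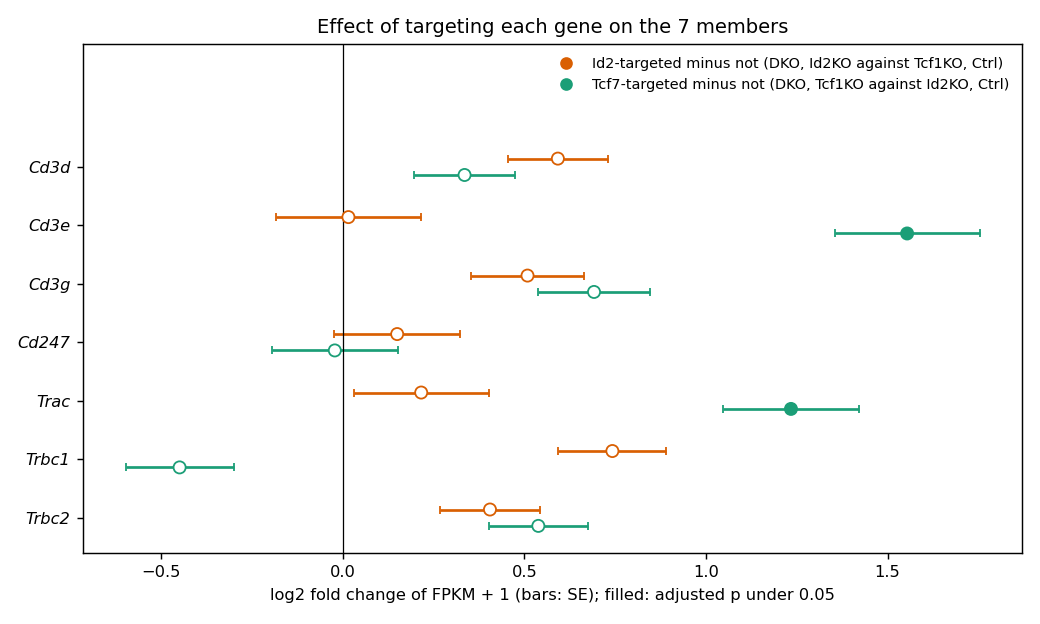
Log2 difference of FPKM + 1 (horizontal axis, bars are the SE) for each of the 7 genes (rows). The upper point of a row is the effect of targeting Id2 and the lower point that of targeting Tcf7; filled points have a limma adjusted p under 0.05. Cd3e and Trac are filled, at 1.55 and 1.23 in the Tcf7 effect, and Trbc1 has the largest Id2 effect, 0.74, which did not pass.

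Cd3d was higher in every Id2KO library than in every Ctrl library, and it alone of the members was called in that comparison. It had 67.2, 103 and 61.5 FPKM in Id2KO, against 29.8, 28 and 26.6 in Ctrl. The difference was 1.39 ± 0.20, a 2.62-fold difference (limma adjusted p = 0.0183), where 0.178% of the tested genes were called in either direction. At an unadjusted p under 0.05 stood 4 members and 9.71% of the genes. Without Id2KO replicate 1, Ctrl replicate 1, Ctrl replicate 2 or Ctrl replicate 3 the adjusted p was 0.057, 0.0604, 0.0739 and 0.0702, with differences of 1.35 to 1.47. In a fit of the 6 compared libraries alone it was 0.163, and without the 3 libraries of lowest array weight 0.1002.

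The other members differed less between Id2KO and Ctrl. Cd3g (42.1, 66.2 and 56.7 FPKM in Id2KO, against 23.1, 40.1 and 32.4 in Ctrl), Trbc1 and Trbc2 also had libraries that did not overlap. Their log2 differences were 0.78 ± 0.22 (adjusted p = 0.267), 0.68 ± 0.21 (adjusted p = 0.298) and 0.59 ± 0.19 (adjusted p = 0.315). Such a separation upward was found for 4 of the 7 members with Cd3d included, beside 7.11% of the tested genes. Cd3e and Trac overlapped, at -0.042 ± 0.28 (adjusted p = 0.982) and 0.27 ± 0.26 (adjusted p = 0.806). The spread of Cd3e and Trac in Id2KO comes from replicate 3, which had 218 and 320.3 FPKM against at most 111 and 199 in the other two.

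The Cd3d difference between DKO and Ctrl was smaller than the sum of the single differences, by an interaction that did not pass the test. It had 56.6, 56.64 and 50.03 FPKM in DKO and 51.6, 70.6 and 68.3 in Tcf1KO, beside the Id2KO and Ctrl values above. Each of the Tcf1KO libraries was above each Ctrl library, and each DKO library below each Id2KO library. The interaction, the difference between DKO and Tcf1KO minus that between Id2KO and Ctrl, was -1.60 ± 0.28 on the log2 scale. It did not pass over all genes (limma adjusted p = 0.164), where 0.0% of genes were called. Before adjustment 735 genes (5.94%) and 1 member, Cd3d, had a p under 0.05. A second tool, voom on reads recovered from the FPKM steps, called 1 gene. The other 6 members had interactions between -0.54 and 0.13 with adjusted p of 0.869 or more, and voom called no member.

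Against Ctrl, the 3 targeted groups share the same control libraries, and their values are given side by side. In DKO, 0 of 7 members were called by limma (0.145% of the tested genes were), 5 had an unadjusted p under 0.05 (9.44% of the genes), and voom called 3, which were Cd3e, Cd3g and Trac. The limma adjusted p of these 3 was 0.0713 each, with log2 differences of 1.57 ± 0.28, 1.20 ± 0.22 and 1.45 ± 0.26. Without Id2KO replicate 3 limma called 2 members in DKO, and 1 in Tcf1KO. In Tcf1KO with all libraries, 0 of 7 members were called (0.0% of the tested genes), 6 had an unadjusted p under 0.05 (4.8% of the genes), and voom called no member and 3 genes in all. In DKO, 5 of 7 members lay entirely above Ctrl (6.28% of the tested genes), and the other 2 were Cd247 and Trbc1. In Tcf1KO, 5 lay above (4.96%), Trbc1 lay below (5.73%), and Cd247 overlapped.

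Between the doubly and the singly targeted groups, all of which carry Cre, limma called no member. In DKO against Id2KO (0.121% of genes called), 3 members had an unadjusted p under 0.05 (10.9% of genes) and voom called no member. Cd3e and Trac lay entirely above (6.34% of genes) and Cd3d entirely below (8.32%). Without Id2KO replicate 3 limma called 2 members. In DKO against Tcf1KO (0.0565% of genes called), 1 member had an unadjusted p under 0.05 (6.73% of genes) and voom called no member. It was Trbc1, with 445, 522 and 482 FPKM in DKO against 246, 316 and 268 in Tcf1KO, a log2 difference of 0.81 ± 0.21 (adjusted p = 0.359).

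CD3 zeta, a chain that NK cells also use, was the member that varied least between the group means. Cd247 had 6.95, 8.93 and 13.3 FPKM in DKO, 8.97, 12.9 and 9.33 in Id2KO, 7.74, 9.87 and 9.54 in Tcf1KO, against 9.83, 6.32 and 9.88 in Ctrl. The 4 groups overlapped. Its log2 differences in the 5 comparisons of single groups lay between -0.12 and 0.24, with adjusted p of 0.815 or more, which does not show that it was the same. The width of these estimates (SE 0.25) leaves room for changes smaller than those of Cd3e and Trac.

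The 6 other members were set against Cd247, the chain through which NK cells signal from NKp46. For each of the 6, its log2(FPKM + 1) minus that of Cd247 was taken within each library. Each of the 2 effects was then tested by an exact two-sided permutation of labels within the strata of the other gene's status (400 arrangements, smallest possible p = 0.005). The 12 p-values were adjusted together. Where Tcf7 was targeted, 4 of the 6 ratios were higher, each at the smallest possible p (adjusted p = 0.015). The differences were 1.58 ± 0.28 for Cd3e, 1.26 ± 0.26 for Trac, 0.71 ± 0.22 for Cd3g and 0.56 ± 0.17 for Trbc2. Cd3d over Cd247 differed by 0.36 ± 0.19 (exact permutation adjusted p = 0.30), and Trbc1 over Cd247 by -0.43 ± 0.20 (adjusted p = 0.10).

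The ratio of Cd3e to Cd247 averaged 5.24 ± 0.32 on the log2 scale in DKO and 5.22 ± 0.08 in Tcf1KO, against 3.51 ± 0.78 in Id2KO and 3.80 ± 0.44 in Ctrl (SD, n = 3). That of Trac averaged 5.52 ± 0.35 in DKO and 5.41 ± 0.12 in Tcf1KO, against 4.22 ± 0.64 in Id2KO and 4.20 ± 0.51 in Ctrl. Since Cd247 shares exon bases with other genes, the differences between groups are used and not the size of a ratio. Reads of those other genes, if they differed between groups, could move these differences as well, and this was not tested. Without any one of the 3 Tcf1KO libraries no ratio passed, although the Cd3e difference stayed between 1.55 and 1.59. The adjusted p for Cd3e was then 0.06, and Trbc2 also missed the threshold without DKO replicate 1 (adjusted p = 0.06).

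Where Id2 was targeted, 0 of 6 ratios passed. The smallest p was that of Trbc1 over Cd247, with a difference of 0.59 ± 0.20 (exact permutation p = 0.025, adjusted p = 0.06), and a limma fit of the ratios with the replicate number as a term called that 1. The ratio of Cd3e differed by -0.13 ± 0.28 (adjusted p = 0.67) and that of Trac by 0.066 ± 0.26 (adjusted p = 0.76). Cd3d and Cd3g differed by 0.44 ± 0.19 and 0.36 ± 0.22 (exact permutation adjusted p = 0.22 and 0.21).

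**Figure D3:**
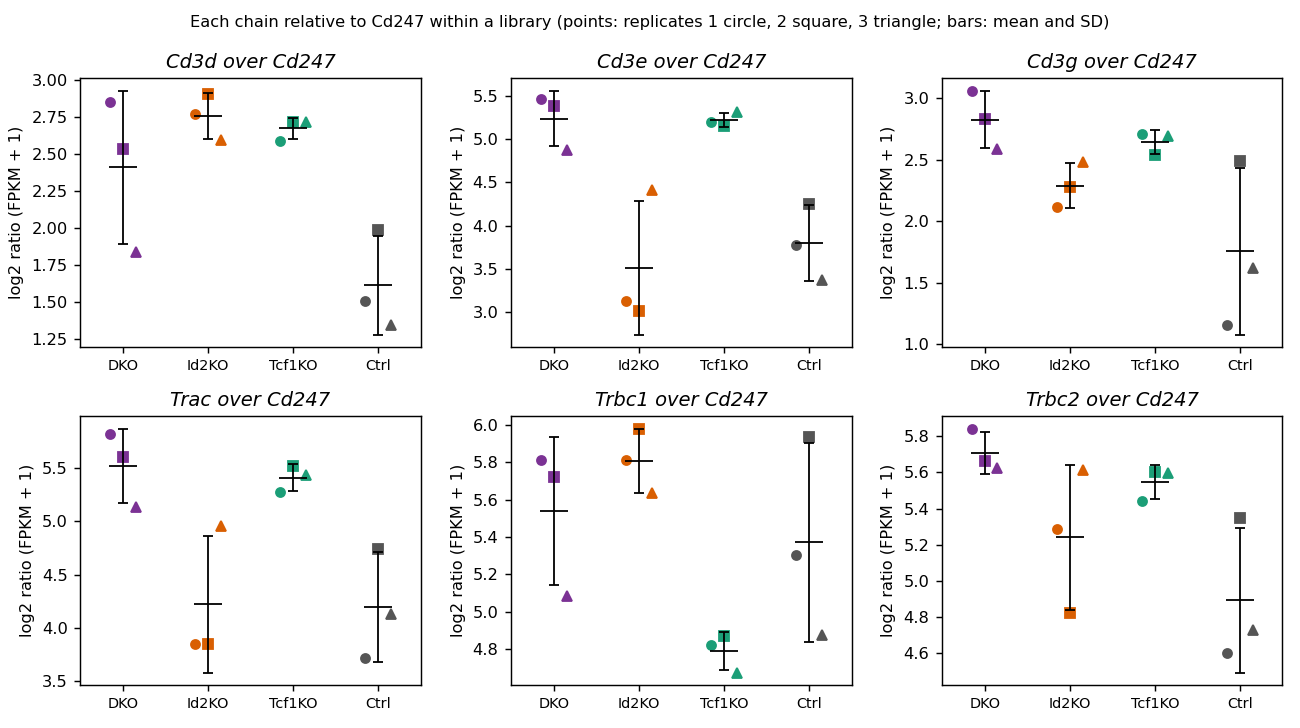
Log2 ratio of FPKM + 1 to that of Cd247 (vertical axes, not starting at 0) for 6 genes in the 3 libraries of each group. Points are libraries and bars the mean and SD. Cd3e and Trac over Cd247 average 5.22 to 5.52 in DKO and Tcf1KO, against 3.51 to 4.22 in Id2KO and Ctrl, and Trbc1 over Cd247 is lowest in Tcf1KO, at 4.79.

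The 2 beta constant genes ordered the groups differently. Trbc1 had 445, 522 and 482 FPKM in DKO and 559, 874 and 512 in Id2KO, against 246, 316 and 268 in Tcf1KO and 427, 447 and 318 in Ctrl. Every DKO library was above every Tcf1KO library, and every Id2KO library above every Ctrl library, a pattern found for 1.08% of the tested genes. In limma the Id2 effect, the mean of DKO minus Tcf1KO and Id2KO minus Ctrl, was 0.74 ± 0.15 for Trbc1 (adjusted p = 0.0796). Over the members, 0 of 7 were called in that effect (0.299% of genes were), 4 had an unadjusted p under 0.05 (10.9% of genes), and voom called 1, Trbc1. The members' median was 0.41, beside -0.0025 for all tested genes. Trbc2 had 455, 501 and 702 FPKM in DKO and 388, 391 and 506 in Id2KO, against 378, 526 and 509 in Tcf1KO and 262, 297 and 287 in Ctrl. Ctrl was below each other library for Trbc2, and the Id2 effect was 0.41 ± 0.14 (adjusted p = 0.300).

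Trbc1 over Trbc2, as FPKM, was 0.979, 1.04 and 0.686 in DKO, 1.44, 2.23 and 1.01 in Id2KO, 0.651, 0.601 and 0.526 in Tcf1KO, against 1.63, 1.504 and 1.11 in Ctrl. All 3 Tcf1KO libraries were below all 3 Ctrl libraries, and all 3 were below the DKO libraries. Over the 12 libraries the Pearson r of log2 levels was 0.95 between Cd3e and Trac, 0.83 between Trac and Trbc2, -0.31 between Trac and Trbc1, and 0.05 between Trbc1 and Trbc2. Cd3g followed Trbc2 (r = 0.89) and Trac (0.82) more than its neighbour Cd3d (0.70). These r are descriptions over 12 libraries that share group structure and scaling.

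Mean reads on the joining segments of the beta chain ordered the groups as the means of the beta constants did, with overlapping libraries. The segment families were chosen for this comparison after their values had been seen, and no test is given. Reads were recovered from the FPKM steps and are given per 1000000 reads of the implied library size. Trbj1, the 7 joining segments before Trbc1, had 28.3 ± 7.16 reads per 1000000 in DKO, 61.1 ± 20.2 in Id2KO, 11.4 ± 1.80 in Tcf1KO and 28.1 ± 0.996 in Ctrl (SD, n = 3). Trbj2, the 7 joining segments before Trbc2, had 17.7 ± 8.13 in DKO, 14.04 ± 2.90 in Id2KO, 15.6 ± 3.74 in Tcf1KO and 8.60 ± 1.40 in Ctrl. The order of Trbj1 over the groups was thus that of Trbc1, with Id2KO highest and Tcf1KO lowest, though DKO and Ctrl overlapped. For Trbj2, DKO replicate 1 at 9.35 was below Ctrl replicate 1 at 9.50, and DKO, Id2KO and Tcf1KO overlapped. The Trbj1 share of all Trbj reads ranged from 56.4% to 68.2% in DKO, 78.4% to 85.1% in Id2KO, 35.0% to 49.4% in Tcf1KO and 74.4% to 80.6% in Ctrl.

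Reads on the variable segments and on the joining segments of the alpha chain (Traj) were, like Cd3e and Trac, higher on average in DKO and Tcf1KO than in Id2KO and Ctrl. Those on the 59 Traj segments averaged 70.4 ± 30.6 in DKO and 54.7 ± 16.8 in Tcf1KO, against 26.9 ± 8.62 in Id2KO and 21.1 ± 4.13 in Ctrl (SD, n = 3), and the libraries of the first 2 groups were above those of the other 2. Reads on the 33 Trav segments averaged 39.8 ± 11.6 in DKO, 14.9 ± 7.28 in Id2KO, 31.7 ± 5.63 in Tcf1KO and 10.5 ± 1.17 in Ctrl. Those on the 20 Trbv segments averaged 76.9 ± 27.2 in DKO, 36.0 ± 16.3 in Id2KO, 64.2 ± 16.2 in Tcf1KO and 26.0 ± 6.96 in Ctrl. Unlike those of Trav and Traj, the Trbv libraries overlapped, with 48.9 in Tcf1KO replicate 1 below 54.2 in Id2KO replicate 3. The variable segment reads were spread over many segments: between 16 and 21 Trav segments reached an FPKM of 1 in DKO and 19 to 21 in Tcf1KO, against 10 to 15 in Id2KO and 7 to 9 in Ctrl. For Trbv the ranges were 16 to 18 in DKO and 16 in each Tcf1KO library, against 13 to 16 in Id2KO and 14 to 16 in Ctrl. The segments with the highest mean over all 12 libraries, an order that differed between groups, were Trav13-1 (13.4 ± 3.91 FPKM in DKO, 4.99 ± 4.37 in Id2KO, 7.91 ± 5.47 in Tcf1KO, 4.45 ± 4.30 in Ctrl) and Trbv13-2 (23.8 ± 7.55 FPKM in DKO, 17.6 ± 13 in Id2KO, 26.0 ± 3.27 in Tcf1KO, 15 ± 4.13 in Ctrl). Traj18, the joining segment of the invariant NKT receptor, had 20.2 ± 6.98 FPKM in DKO, 27.8 ± 20.9 in Id2KO, 33.2 ± 8.64 in Tcf1KO and 16.7 ± 8.26 in Ctrl, and its Tcf7 effect was 0.39 ± 0.36 (limma adjusted p = 0.784). Its variable partner Trav11 is not analysed here. Segments of one family are near copies of each other, so single segment values are uncertain.

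**Figure D4:**
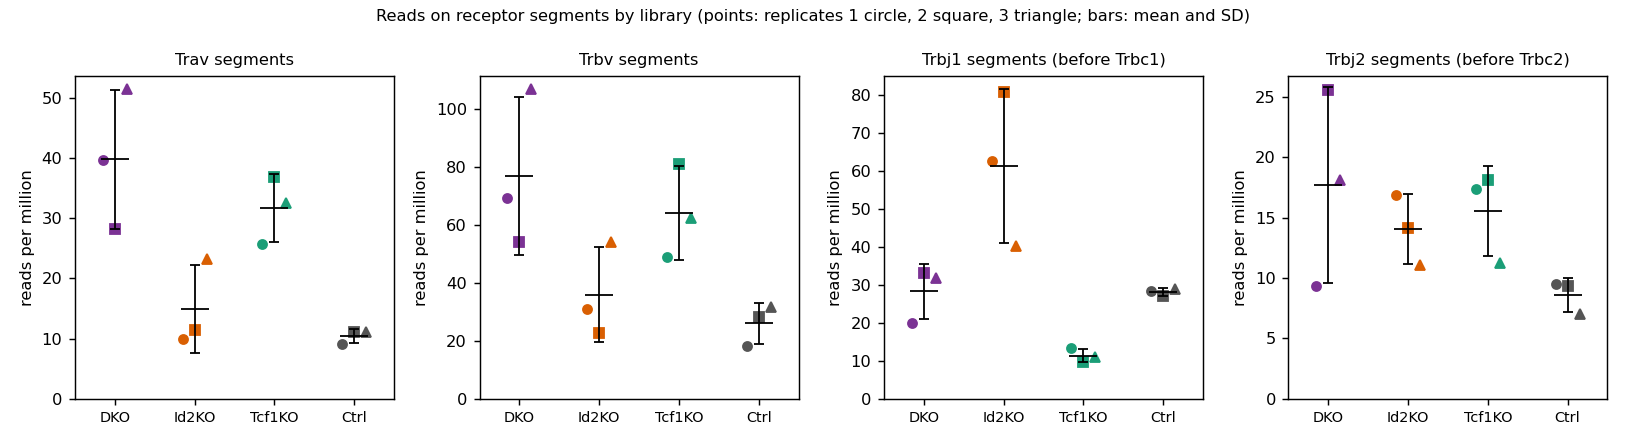
Reads on Trav, Trbv, Trbj1 and Trbj2 segments per 1000000 reads of the library (vertical axes, from 0) in the 3 libraries of each group. Points are libraries and bars the mean and SD. Trav and Trbv reads are on average high in DKO and Tcf1KO (means of 31.7 and more for Trav), with overlap for Trbv, and Trbj1 reads are highest in Id2KO and lowest in Tcf1KO.

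Genes that the receptor needs to be made and to act were compared from lists of textbook members. Of 28 tested genes of receptor signalling (kinases, adaptors and their regulators), limma called 0 in the Tcf7 effect (0.371% of all tested genes), 7 had an unadjusted p under 0.05 (9.74% of all), and voom called 1, Plcg1. Plcg1, the phospholipase that LAT recruits, had 1.74, 1.63 and 3.29 FPKM in DKO and 1.23, 1.28 and 2.07 in Tcf1KO, against 0.198, 0.190 and 0.417 in Id2KO and 0.677, 0.893 and 0.478 in Ctrl. No Id2KO or Ctrl library reached an FPKM of 1, so Plcg1 entered the test only through the Tcf7-targeted libraries, and its values are a description. Without it and Sit1, which also did not reach the filter in Id2KO and Ctrl alone, 5 of 26 genes had an unadjusted p under 0.05. The list's median Tcf7 effect was -0.020, beside -0.0067 for all tested genes. In the Id2 effect limma also called 0 of 28 (0.299% of all), and voom called 1, Dgka, a kinase that removes diacylglycerol (0.70 ± 0.13, limma adjusted p = 0.0602), with 4 genes at an unadjusted p under 0.05 (10.9% of all). Sit1, 1 of these 4, did not reach the filter in Tcf1KO and Ctrl alone. Without Sit1, 3 of 27 genes stood at such a p. Zap70, the kinase that docks on phosphorylated CD3 zeta, had 0.44 ± 0.11 in the Id2 effect (adjusted p = 0.158). Of the 4 genes of receptor rearrangement (Ptcra, Rag1, Rag2, Dntt), none reached the FPKM filter. Ptcra, the pre-T alpha chain, was listed at 0 in each library, and the summed FPKM of the 4 was at most 2.58.

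Some markers of T cells were higher in the same libraries as Cd3e and Trac and others were not, and none passed the test in limma. In the Tcf7 effect limma called 0 of 14 tested T lineage genes of 17 listed (0.371% of all tested genes), 6 had an unadjusted p under 0.05 (9.74% of all), voom called 1, Cd8a, and the median was 0.35, beside -0.0067 for all tested genes. Cd8a, the CD8 alpha chain, had 13.8, 8.32 and 11.4 FPKM in DKO and 6.61, 13.6 and 15 in Tcf1KO, against 1.06, 2.14 and 6.87 in Id2KO and 2.94, 3.54 and 1.86 in Ctrl (1.70 ± 0.32, adjusted p = 0.0586). Cd5, a surface marker of T cells, had 9.43, 9.95 and 11 FPKM in DKO and 11.7, 18.8 and 11.4 in Tcf1KO, against 2.65, 2.96 and 11 in Id2KO and 3.64, 4.25 and 5.75 in Ctrl (1.20 ± 0.28, adjusted p = 0.147). Id2KO replicate 3 was the highest of its group in Cd3e, Trac, Cd5, Cd8a and Trav reads, and it had the lowest array weight (0.554) of the 12 libraries. Bcl11b, a factor of T cell commitment, differed by 1.11 ± 0.26 (adjusted p = 0.148). Cd8b1, Cd6, Cd40lg and Ctla4 did not reach the filter in Id2KO and Ctrl alone, and without these 4, 3 of 10 genes had an unadjusted p under 0.05. Icos, a costimulatory receptor, averaged 7.78 ± 1.25 FPKM in DKO and 6.81 ± 2.48 in Tcf1KO, against 10.7 ± 3.71 in Id2KO and 9.12 ± 3.88 in Ctrl. Satb1 and Lef1, factors of T cell development, averaged 7.27 ± 1.21 and 5.41 ± 1.07 FPKM in DKO and 6.61 ± 0.634 and 5.82 ± 1.09 in Tcf1KO, against 8.20 ± 1.41 and 5.63 ± 2.40 in Id2KO and 7.35 ± 0.629 and 5.72 ± 1.30 in Ctrl, with overlapping libraries. Icos, Satb1 and Lef1 were chosen after their values had been seen. The summed FPKM of the 17 genes ranged from 94.9 to 174 in DKO, 88.7 to 116 in Id2KO, 80.5 to 114 in Tcf1KO and 69.8 to 104 in Ctrl. Foxp3 was at most 0.172 FPKM in any library, Trat1 at most 1.48 and Themis at most 1.22. Whether T cells among the sorted cells had a part in the levels of Cd3e and Trac was not tested.

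**Figure D5:**
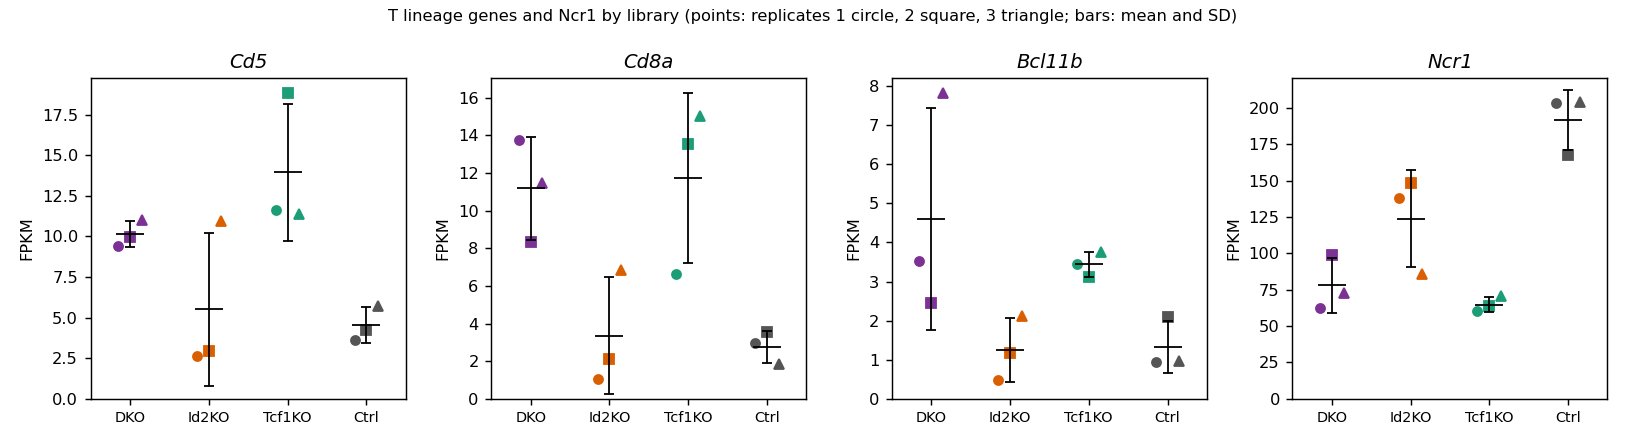
FPKM (vertical axes, from 0) of the T lineage genes Cd5, Cd8a and Bcl11b and of Ncr1 in the 3 libraries of each group. Points are libraries and bars the mean and SD. Id2KO replicate 3 (triangle) is at 11 FPKM of Cd5, level with DKO, and at 85.8 FPKM of Ncr1, below the other 2 Id2KO libraries.

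Adaptors and receptors that NK cells use, Ncr1 and Fcer1g among them, did not follow Cd3e. Ncr1 (NKp46), whose promoter drives the Cre in the targeted mice, was lower where Tcf7 was targeted, with 62.4, 99.1 and 72.9 FPKM in DKO and 60.3, 63.7 and 70.4 in Tcf1KO, against 138, 148 and 85.8 in Id2KO and 203, 168 and 204 in Ctrl (Tcf7 effect -1.10 ± 0.16, limma adjusted p = 0.0208). DKO and Id2KO, which both carry Cre, differed by -0.65 ± 0.22 (adjusted p = 0.311), and their libraries overlapped. Tcf1KO and Ctrl differed by -1.55 ± 0.22 (adjusted p = 0.143), and Id2KO and Ctrl by -0.66 ± 0.22 (adjusted p = 0.346). Every library of the 3 groups with Cre was below every Ctrl library, and the part of Cre was not tested. The 9 tested adaptors and receptors are not all partners of CD3 zeta. Of the 9, Ncr1 was the 1 called in the Tcf7 effect (0.371% of all tested genes), and the list's median was -0.23. At an unadjusted p under 0.05 stood 4 of the 9 (9.74% of all), which were Ncr1, Tyrobp, Klrk1 and Fcer1g, all lower. Tyrobp had -0.60 ± 0.16 (limma adjusted p = 0.205). Fcer1g, the chain that pairs with CD3 zeta, averaged 749 ± 92.5 FPKM in DKO, 749 ± 54.3 in Id2KO, 601 ± 34.8 in Tcf1KO and 824 ± 78.4 in Ctrl, with a Tcf7 effect of -0.23 ± 0.093 (adjusted p = 0.456). Fcgr3, an Fc receptor, had -0.31 ± 0.27 (adjusted p = 0.776). In the Id2 effect limma and voom each called 0 of 9 (0.299% of all genes in limma), and 1 gene had an unadjusted p under 0.05 (10.9% of all).

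Genes whose levels were most like those of the members were sought among the tested genes outside the 7, by Pearson r of log2(FPKM + 1) over the 12 libraries, leaving out predicted genes. For Cd3e they were Ikzf2 (0.969), Trgv2 (0.965), Cd8a (0.962), Tnfsf10 (0.946) and Tcrg-C2 (0.932). For Trac they were Ikzf2 (0.945), Ly6c2 (0.941), Cd8a (0.939), Tnfsf10 (0.937) and Trgv2 (0.925). The lists for Cd3e and Trac share 4 of 5 genes, while that for Cd247 shares none with them and was led by Pdss1 (0.909), Rspry1 (0.902) and Fnbp1 (0.891). These are the highest of the values over all tested genes and describe these libraries only.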

How the data were processed

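The authors deposited 1 table of FPKM per gene for the 12 libraries. Per the submitters' processing notes, Trimmomatic 0.33, TopHat2 2.1.0, HTSeq 0.6.1, edgeR and the build mm10 were used; strand use and annotation are not given in the sources used here. FPKM were used as deposited. Symbols came from GENCODE M21 (32938 IDs matched). Genes that reached an FPKM of 1 in 3 or more libraries were tested with limma 3.58.1 (R 4.3.3) on log2(FPKM + 1), with 1 fit of all 12 libraries, group as its term, a variance trend and Benjamini-Hochberg adjustment over 12384 genes in each of 8 comparisons, at a threshold of 0.05. Whole reads were recovered from the FPKM steps for 23704 of 23707 genes above 0, within 0.001 reads, widened to at most 0.05 (99.98% of values), and used for segment sums and for voom, with trimmed-mean scaling. Ratios to Cd247 were tested by exact permutation. The read recovery, the fit and the permutation test were tested on simulated data.

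Named genes were the 7 members, Id2 and Tcf7, in a comparison up to 4 genes per list, taken by smallest p, the 5 genes most like Cd3e, Trac and Cd247, and the 3 Trav and Trbv segments of highest mean; others were chosen after their values were seen. The members and lists were chosen with earlier results of these data known. Promoter windows came from RefSeq, with entries for 4 of the 7 members. Tables and figures used Python 3.11.15, numpy 2.4.6, pandas 2.3.3 and matplotlib 3.10.9. Depth was 13951277 to 20172659 recovered reads in a library. With 3 libraries in a group an exact permutation test of a single pair of groups cannot go below 0.1.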

Additional observations from a re-analysis of the deposited data

How the results depend on the processing

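Over all genes, limma called 22 genes in Id2KO and 0 in Tcf1KO, each against Ctrl. It called 18, 15 and 7 in DKO against Ctrl, Id2KO and Tcf1KO, 37 in the Id2 effect, 46 in the Tcf7 effect and 0 in the interaction. Leaving out 1 library in turn gave 11 to 27 and 0 to 3 in the first pair, 1 to 27, 1 to 27 and 0 to 7 for DKO, 13 to 62 and 5 to 66 in the effects, and 0 throughout in the interaction. Members called ranged from 0 to 1 in Id2KO against Ctrl, 0 to 1 in Tcf1KO against Ctrl, 0 to 2 in DKO against Ctrl, 0 to 2 where DKO was set against Id2KO, and 0 to 2 in the Tcf7 effect. Ratios to Cd247 called ranged from 0 to 2 (Id2 effect) and 0 to 5 (Tcf7 effect).

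A pseudocount of 0.1 gave 4 genes in DKO against Tcf1KO. With no filter the counts were 1 in Tcf1KO against Ctrl, 4 in DKO against Ctrl, 4 in DKO against Tcf1KO, 13 in the Id2 effect and 20 in the Tcf7 effect, with 1 member, Cd3e. A filter at FPKM 5 gave 8 in DKO against Id2KO and 4 in DKO against Tcf1KO, and no variance trend gave 1 in the interaction. Array weights gave 7 in Tcf1KO against Ctrl, 85 in the Id2 effect with 1 member (Trbc1), 89 in the Tcf7 effect with Cd3g (0.76, adjusted p = 0.048) also called, and 1 member (Cd3e) in DKO against Id2KO. voom gave 44 in Id2KO and 3 in Tcf1KO against Ctrl, 32, 8 and 2 in DKO against Ctrl, Id2KO and Tcf1KO, 80 in the Id2 effect and 1 in the interaction, with 3 members in DKO against Ctrl and 1 in the Id2 effect. Without the 3 libraries of lowest array weight (Id2KO replicate 3, DKO replicate 3, Ctrl replicate 2) the counts of the 5 single-group comparisons were, in that order, 3, 4, 0, 6 and 2, with 9 in the Id2 effect. No member was then called in Id2KO against Ctrl (0), 1 was in DKO against Id2KO (Cd3e), and 3 ratios were in the Id2 effect (Cd3g, Trbc1, Trbc2). Fits of the compared groups alone gave, in that order, 9, 4, 1, 0 and 1 genes, and 0 members in Id2KO against Ctrl. The cause of these changes was not tested, beyond the smaller number of libraries in the last 2 settings.

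Values near 0 changed sign. With array weights these were Cd247 in DKO against Ctrl (-0.014) and against Tcf1KO (-0.025), Cd3e in the Id2 effect (-0.097) and Trac in the interaction (0.013). Without the 3 libraries of lowest weight they were Cd247 against Ctrl in Tcf1KO (-0.12) and DKO (-0.29), in DKO against Tcf1KO (-0.17) and in the Id2 effect (-0.027), Cd3e in the Id2 effect (-0.18), and Trac (0.085) and Trbc1 (-0.11) in the interaction. Leaving out 1 library moved Cd247 from -0.34 to 0.078 in DKO against Id2KO, -0.14 to 0.075 in the Tcf7 effect, -0.41 to 0.0060 in the interaction, -0.099 to 0.32 in DKO against Ctrl, -0.17 to 0.25 in DKO against Tcf1KO and -0.12 to 0.17 in Tcf1KO against Ctrl. Cd3e lay between -0.18 and 0.16 in the Id2 effect, -0.43 and 0.24 in Id2KO against Ctrl, -0.17 and 0.50 in the interaction and -0.035 and 0.16 in DKO against Tcf1KO. Trac lay between -0.038 and 0.54 in Id2KO against Ctrl, -0.38 and 0.20 in the interaction, -0.0011 and 0.28 in DKO against Tcf1KO and, over Cd247, -0.12 and 0.20 in the Id2 effect. Trbc1 lay between -0.023 and 0.36 in the interaction. None of these passed the threshold in any setting. Cd3e in the Tcf7 effect and Cd3d in Id2KO against Ctrl kept their sign in every setting, as did Trac in the Tcf7 effect.

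Replicate numbers are shared by the groups, but the labels tie them to no animal or day, and deviations of same-numbered libraries correlated by -0.14 to 0.272, with 6 of 18 pairs over 0.1. As a block, the number gave 2 members in DKO against Ctrl (Cd3g and Trac, adjusted p = 0.0393), 1 in the Id2 effect (Trbc1, adjusted p = 0.0406), 15 genes in DKO against Tcf1KO and 28 in the Tcf7 effect, and 1 ratio in the Id2 effect (Trbc1). Cd3e, Trac and Cd3d remained called under the block. The edgeR alternative was not run, since the values are FPKM. With 3 libraries in a group the estimates cannot exclude changes of the size of their SE, and differences between genes in level depend on the lengths used.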

Other observations

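The constant genes of the gamma chain, Tcrg-C1, Tcrg-C2 and Tcrg-C4, were also read in every library, and Tcrg-C4 rose where Tcf7 was targeted. Tcrg-C4 had 142, 134 and 215 FPKM in DKO and 212, 122 and 266 in Tcf1KO, against 74.1, 90.3 and 79.9 in Id2KO and 62.2, 90.3 and 59.0 in Ctrl. No targeted library overlapped the others (Tcf7 effect 1.21 ± 0.20, limma adjusted p = 0.0385). Tcrg-C2 had 199, 227 and 223 FPKM in DKO and 134, 245 and 161 in Tcf1KO, against 46.4, 70.9 and 173 in Id2KO and 90.0, 114 and 59.1 in Ctrl. Its Tcf7 effect of 1.20 ± 0.29 did not pass (adjusted p = 0.165), and Id2KO replicate 3, at 173 FPKM, was again the library that overlapped. Tcrg-C1 had 0.71 ± 0.17 in the Tcf7 effect (adjusted p = 0.163) and 0.73 ± 0.17 in the Id2 effect (adjusted p = 0.134). The gamma constant genes are near copies of one another, so reads could be split between them.

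Cd163l1, a scavenger receptor known from gamma-delta T cells, was higher in the Id2-targeted libraries. It averaged 1.90 ± 0.613 FPKM in DKO and 6.03 ± 1.09 in Id2KO, against 0.134 ± 0.145 in Tcf1KO and 0.343 ± 0.302 in Ctrl (SD, n = 3). No Tcf1KO or Ctrl library reached the FPKM filter of 1, so it entered the test only through the groups where it is high, and no test is given. Among the 5 tested genes listed for gamma-delta T cells, 3 had a positive difference in the Id2 effect and 3 in the Tcf7 effect. Trdv4, a delta chain variable segment, went the other way from Cd163l1, with -1.36 ± 0.33 in the Id2 effect (limma adjusted p = 0.138).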
